A study of Mus musculus with 171 samples.

Results

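The genes described are the mouse trophectoderm factors Cdx2, Gata2, Gata3, Eomes, Elf5, Tfap2c and Tead4 and the keratins Krt8 and Krt18, 9 of the 49671 gene rows of a single-cell RNA sequencing count table. They were chosen by symbol, through the Ensembl identifier of each row. The table holds cells of 17 mouse embryos. At day 3.5 (E3.5), inner cell mass (ICM) cells came from 5 Stat3 -/- embryos (MUT, 55 cells) and 5 Stat3 +/+ embryos (WT, 64 cells). The titles give E3.75 for the other 52 cells, where the source label says E3.5. These were labelled epiblast (EPI), with 9 cells of 4 MUT embryos and 19 cells of 3 WT embryos, or primitive endoderm (PrE), with 14 cells of the same 4 MUT embryos and 10 cells of the same 3 WT embryos. Stat3 encodes a transcription factor that acts downstream of the cytokine LIF. How the Stat3 allele was made, and how cells were taken from the blastocyst, is not described in the labels.

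The trophectoderm is the outer epithelium of the blastocyst and gives rise to the placenta, while the inner cell mass divides into EPI, the source of the embryo proper, and PrE, the source of yolk sac endoderm. In outer cells of the mouse embryo Hippo signalling is low, its targets YAP1 and TAZ (encoded by Wwtr1) enter the nucleus, and with the DNA-binding protein TEAD4 they switch on Cdx2 and Gata3. CDX2, EOMES, ELF5 and the AP-2 factor encoded by Tfap2c then maintain trophoblast stem cells, GATA2 and GATA3 drive trophoblast genes, and KRT8 pairs with KRT18 in the filaments of simple epithelia. Several of these genes also act elsewhere: EOMES is needed later in visceral endoderm and mesoderm, and the AP-2 factor in germ cells.

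The promoters of 3 members on which the results turn are shown first, from the RefSeq table of GRCm38.p6, as 300 bases that run 5′ to 3′ on the gene's own strand, from 250 bases before the start to 50 bases after it. Capitals mark matches, on either strand, to the core letters of factors of this network.

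Cdx2: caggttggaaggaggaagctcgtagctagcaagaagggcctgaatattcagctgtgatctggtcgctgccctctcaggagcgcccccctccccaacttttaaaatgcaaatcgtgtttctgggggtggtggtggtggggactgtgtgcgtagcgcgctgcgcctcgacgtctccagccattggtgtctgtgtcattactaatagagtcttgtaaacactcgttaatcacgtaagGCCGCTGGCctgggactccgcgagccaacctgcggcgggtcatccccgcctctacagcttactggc

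Krt8: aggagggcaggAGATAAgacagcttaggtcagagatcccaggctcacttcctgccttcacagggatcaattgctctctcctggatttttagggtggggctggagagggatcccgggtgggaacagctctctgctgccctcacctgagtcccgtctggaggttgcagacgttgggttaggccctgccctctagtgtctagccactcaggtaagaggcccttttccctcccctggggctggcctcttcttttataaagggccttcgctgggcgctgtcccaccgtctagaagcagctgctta

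Krt18: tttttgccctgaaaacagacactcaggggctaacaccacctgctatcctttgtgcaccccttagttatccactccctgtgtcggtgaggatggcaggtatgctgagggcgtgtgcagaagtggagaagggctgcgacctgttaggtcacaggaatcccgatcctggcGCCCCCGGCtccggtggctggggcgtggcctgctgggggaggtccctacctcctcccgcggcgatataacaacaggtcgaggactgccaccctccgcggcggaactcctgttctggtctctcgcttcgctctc

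The Cdx2 window is chr5:147307200-147307499 on the minus strand, the Krt8 window chr15:102004293-102004592 on the minus strand and the Krt18 window chr15:102027966-102028265 on the plus strand. The motifs searched were GGAATG for TEAD factors, found in 14.66% of the 32851 promoters of the table, GCCNNNGGC for AP-2 factors (16.59%), AGATAA for GATA factors (11.18%), TTCNNNGAA for STAT factors (8.298%) and TTTATG for CDX factors (11.85%). The Cdx2 and Krt18 windows each held 1 AP-2 match and the Krt8 window 1 GATA match, and these 3 windows held none of the other letters. Windows were found for 7 of the 9 members, without Tfap2c and Tead4. Krt8 and Krt18 are neighbours on chromosome 15, on opposite strands and 23.698 kb apart (GENCODE vM21, GRCm38).

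Cells held 163822 to 25095390 counts, and counts summed per embryo and lineage (24 sums, the units of every test) held 8117787 to 122331780. Cells are given as counts scaled to a cell total of 1000000 (CPM) and sums as CPM scaled by the TMM method. Every sum of EPI and PrE cells came from deep cells (7528770 counts or more), whereas 7 of the E3.5 cells were shallow. Stat3, the deleted gene, stood at 0.13 to 12.4 CPM in MUT ICM sums against 43.9 to 104 in WT ICM sums, at 0.0294 to 26.4 CPM in MUT EPI sums against 84.5 to 161 in WT EPI sums, and at 9.82 to 21.4 CPM in MUT PrE sums against 24.3 to 136 in WT PrE sums. Genotypes did not overlap in any of the 3 comparisons, and Stat3 itself did not pass edgeR's test across all genes (adjusted p = 0.684, 0.972 and 0.737). Summed EPI markers exceeded summed PrE markers in all 28 EPI cells and in 1 of the 24 PrE cells, cell 4 of WT embryo 1 (1994 against 1491 CPM). At E3.75 the title letters, whose meaning is not given, run with the groups: MUT embryos 1 and 2 are B, MUT 4 and 5 and WT 3 are A, and WT 1 and 2 are C. By Y-linked counts and Xist, all E3.75 MUT embryos and WT 3 were male and WT 1 and 2 female. At E3.5, MUT embryos 2, 10, 18 and 24 and WT 21 and 22 were female, and MUT 23 and WT 13, 16 and 20 male, so that sex is unevenly spread over the genotypes there too.

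The 9 genes differed in how many cells held them. Krt8 was detected in all cells of all 6 groups, with medians of 193 CPM in MUT ICM and 135 in WT ICM, 51.4 in MUT EPI and 49.6 in WT EPI, and 211 in MUT PrE and 142 in WT PrE. Tead4 was detected in 54 of 55 MUT ICM cells and 58 of 64 WT ICM cells, and in all E3.75 cells but 1. Gata3, Eomes, Tfap2c and Krt18 were patchy, high in some cells and absent from others of the same embryo. Gata2 was rare outside WT EPI and WT PrE, with a count in 2 of 9 MUT EPI cells and 16 of 19 WT EPI cells, in 2 of 14 MUT PrE cells and 8 of 10 WT PrE cells, and in 3 of 55 MUT ICM cells and 6 of 64 WT ICM cells. Many of these were traces: 10 CPM or more was reached in 0 MUT EPI and 7 WT EPI cells, 0 MUT PrE and 2 WT PrE cells, and 1 MUT ICM and 2 WT ICM cells. Cdx2 and Elf5 were close to absent: Cdx2 had a count in 10 cells and 10 or more counts in 4.

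**Figure D1:**
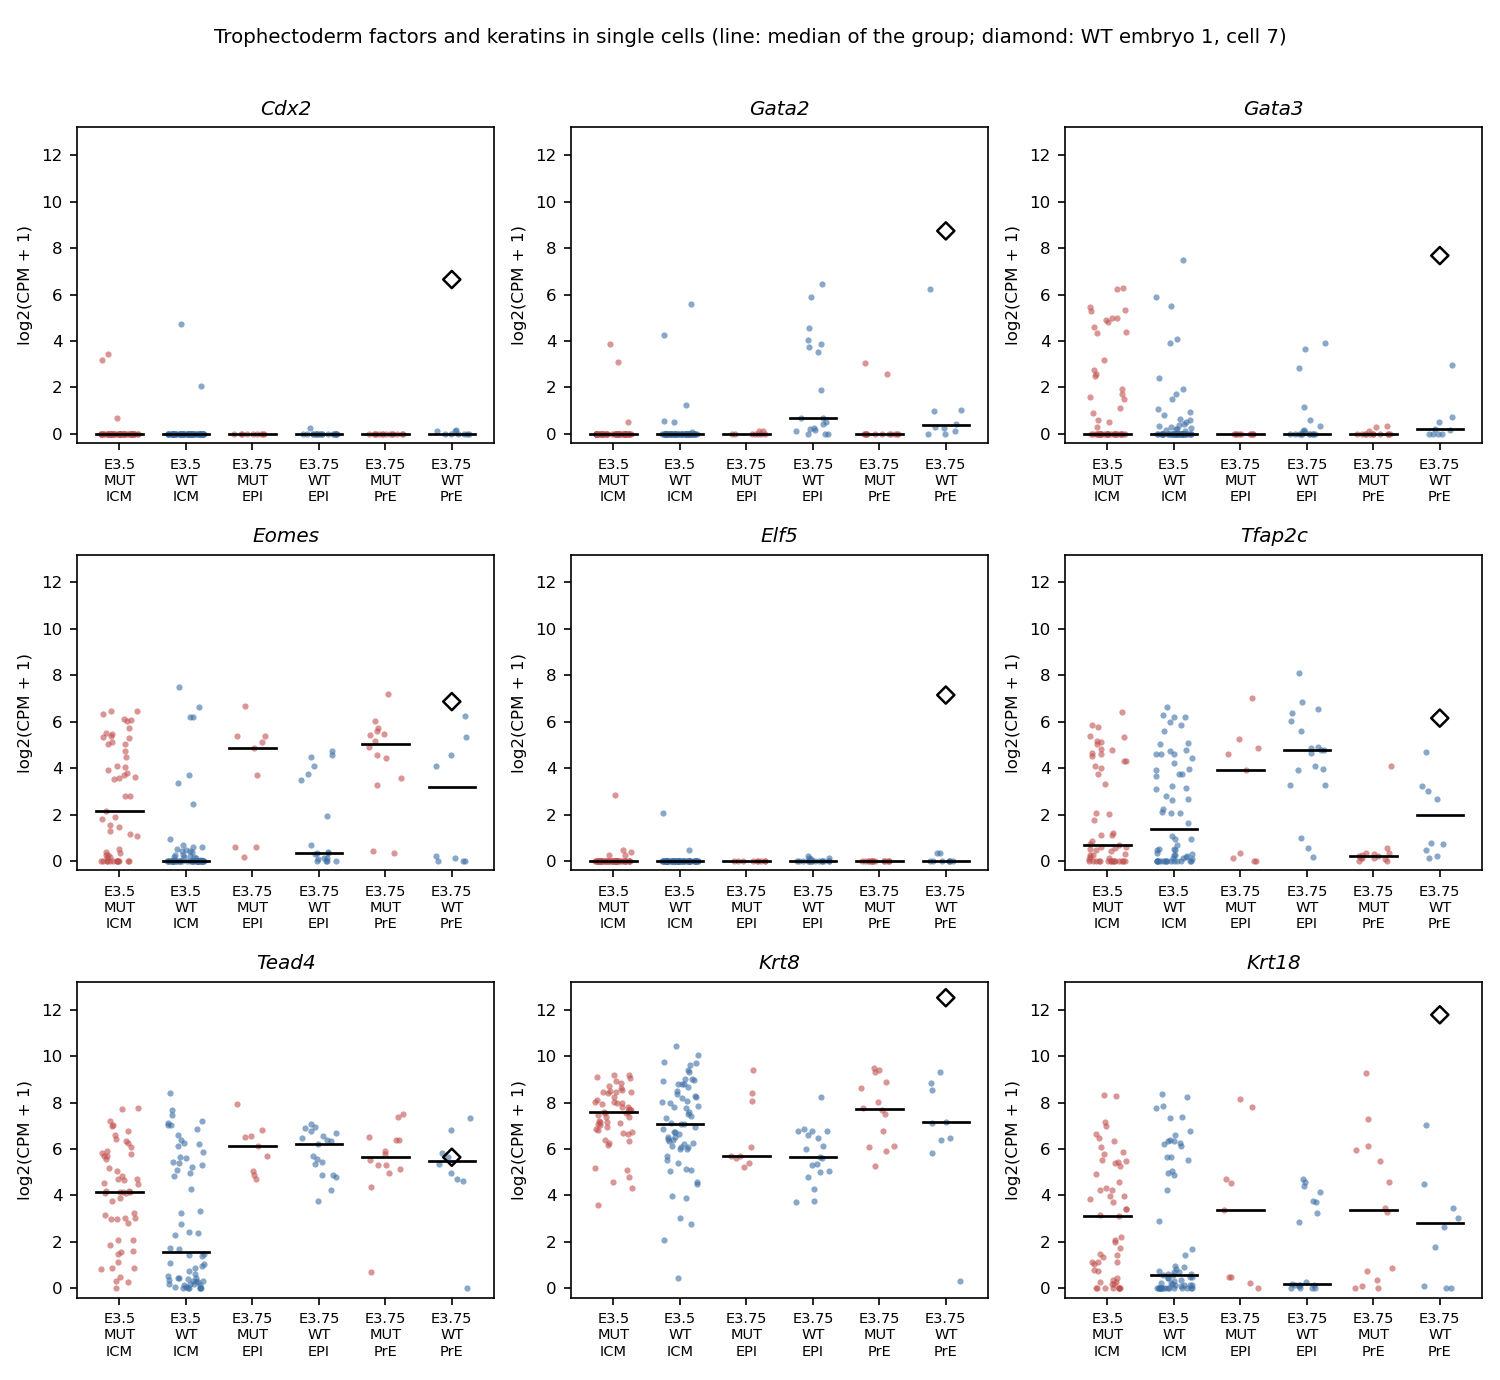
Each point is 1 cell, on a log2(CPM + 1) axis, with MUT in red and WT in blue, a line at the median of the group and a diamond for cell 7 of WT embryo 1. The diamond stands at 99.4 CPM for Cdx2 and 141 CPM for Elf5, where almost all other cells are at 0, while Tead4 is spread over the E3.5 cells and narrow at E3.75.

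One cell labelled PrE held the whole set. It was taken by a rule on Cdx2, Gata3, Eomes and Elf5, given below, so that its high values of these members are not independent of the choice. Cell 7 of WT embryo 1 (letter C, 10708755 counts) had 99.4 CPM of Cdx2 (1064 counts), 427.5 of Gata2, 204 of Gata3, 116 of Eomes, 141 of Elf5 (1512 counts), 70.4 of Tfap2c, 49.0 of Tead4, 5848 of Krt8 and 3514 of Krt18. It was above all other 9 WT PrE cells for 8 of the 9 members and the highest of the cells of all groups for 6 of them. Tead4 was the exception, at rank 5 of the 10. The next Cdx2 value among WT PrE cells was 0.133 CPM and the next Elf5 value 0.266 CPM. For how many of all genes this cell was the highest of its group was not counted.

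Genes outside the 9 stood the same way in that cell. Of 16 other genes of a trophectoderm list, 15 had a count and 13 were above all other WT PrE cells. The helix-loop-helix inhibitor Id2 had 1355 CPM against at most 37.9 in the other 9 cells, the tight junction protein gene Cldn4 1757 against at most 118, the keratin gene Krt19 287 against at most 127 and the homeobox gene Esx1, on the X chromosome and known from placenta, 17.3 against 0. Ascl2, needed for the spongiotrophoblast, had 0 counts. Of 17 Hippo pathway genes only Tead2 was above all the other WT PrE cells, at 104 CPM against at most 42.2. Yap1 had 0.187 CPM against 0.133 to 87.7 in the other 9 cells, and Wwtr1 234 CPM against 25.1 to 239.

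The markers of the label were low in it. The endoderm factor Gata4 had 0.934 CPM against 194 to 496 in the other 9 WT PrE cells, Sox17 0.934 against 269 to 966, the receptor gene Pdgfra 1.31 against 140 to 531 and the laminin gene Lama1 36.5 against 157 to 764. Hnf4a had 0 counts, and Cubn, which encodes an endocytic receptor, 1.31 CPM against 8.1 to 732. Gata6 was within the range of the other cells at 89.7 CPM. Summed over 10 markers, PrE genes had 133 CPM in this cell, the lowest of the group (median 2390), and 7 EPI genes had 101 CPM. Pou5f1, common to ICM cells, was below the other 9 cells at 411 CPM against 520 to 1047. Stat3 at 143 CPM was within the other cells' 26.3 to 163. Its depth and its 11243 genes detected were within the range of the group, and whether it is a trophectoderm cell carried over or a mixture of cells was not tested.

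**Figure D2:**
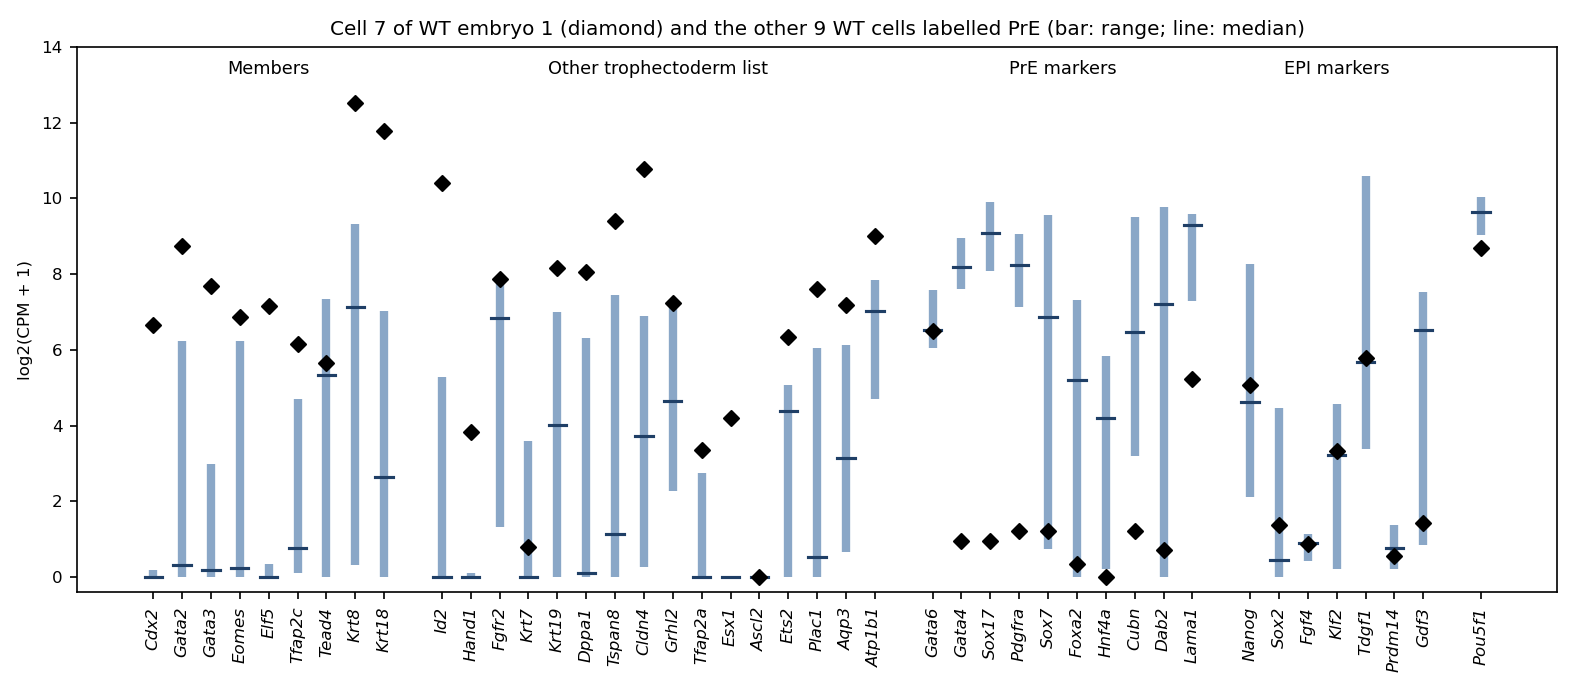
For each gene the diamond is cell 7 of WT embryo 1, the bar the range and the dark line the median of the other 9 WT cells labelled PrE, on a log2(CPM + 1) axis. The diamond is above the bar for 8 of 9 members and 13 of 16 other trophectoderm genes, and below it for 6 of 10 PrE markers.

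This cell set the group's levels. It held 9.73% of all counts of WT PrE cells but 99.7% of their Cdx2 counts, 99.7% of Elf5, 96.4% of Gata3, 95.2% of Krt18, 85.1% of Gata2, 74.4% of Krt8, 59.4% of Tfap2c, 41.1% of Eomes and 8.26% of Tead4. In CPM without TMM scaling, the other 2 PrE cells of WT embryo 1 had 552 CPM of Krt8 without it, against 2373 with it. Krt18 was 72.5 CPM without it and 1256 with it, Gata2 0.147 and 147, Gata3 3.62 and 72.5, and Cdx2 and Elf5 were at 0 without it. The other 2 cells, 4 and 6, held summed EPI markers at 1994 and 1643 CPM and PrE markers at 1491 and 1653 CPM, so the sum without cell 7 rests on cells of mixed markers. Values of WT PrE below hold cell 7 unless stated, and the edgeR fold changes of members between genotypes, lineages and stages are given with and without it.

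Other cells held traces of Cdx2 and Elf5. Among the other 20 cells of letter C, 4 had 1 or 2 counts of Cdx2, 6 had 1 to 3 counts of Elf5 and 19 had a count of Gata2. None of the 24 cells of letter A or the 7 of letter B had a count of Cdx2 or Elf5, and Gata2 had a count in 8 of 24 and 0 of 7. Counts of Cdx2 and Elf5 in the letter C cells never exceeded 0.266 CPM, whereas Gata2 reached 85.9 CPM. Among the 119 E3.5 cells, whose titles carry other letters, 1 to 3 counts of Cdx2 were found in 2 cells and of Elf5 in 7. These are smaller shares than among the 20 letter C cells, and the median depth of cells was lower at E3.5. Whether reads passed between cells of a letter was not tested.

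A second cell met the same rule, which asked for at least 2 of Cdx2, Gata3, Eomes and Elf5 at 20 CPM or more on 10 or more counts each. MUT ICM embryo 18 cell 21 (letter D, 1692697 counts) had 77.4 CPM of Gata3, the highest among the 55 MUT ICM cells, and 44.9 of Eomes. It had 0 counts of Cdx2 and Elf5, 209 CPM of Krt8, close to the group's median of 193, and 1.18 of Krt18. None of the 16 other trophectoderm genes was at its highest there. Of 17 Hippo pathway genes only Amotl1 was, at 128 CPM against at most 61.9 in the other MUT ICM cells. Its summed EPI markers were 28.9 CPM (median of the group 305) and its PrE markers 129 CPM (median 573), both within the group's range. Pou5f1 was at 480 CPM, against a median of 299 in the other cells. With a threshold of 10 CPM the rule took 6 cells (4 MUT ICM, 1 WT EPI and 1 WT PrE), and with 50 CPM only cell 7 of WT embryo 1.

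Other single cells were high in 1 or a few members. For Cdx2 the next was WT ICM embryo 22 cell 1 of letter D (25.6 CPM, 188 counts). It had 75.2 CPM of Krt18 and 515 of Krt8 but 2.32 of Gata3 and 0 of Eomes and Elf5. MUT ICM embryo 18 cells 15 and 1 had 9.98 and 8.11 CPM of Cdx2, with Gata3 at 39.8 and 31.0 and Eomes at 10.8 and 13. Cdx2 and Gata3 thus stood together in these 2 cells, without Elf5 or Gata2. For Gata3 the next was WT ICM embryo 21 cell 18 (177 CPM), which also had the highest Krt18 of the E3.5 cells (333 CPM). For Eomes the 2 highest cells of all held none of Cdx2 or Elf5: WT ICM embryo 21 cell 5 (182 CPM), with 2291 CPM of summed EPI markers and 1779 of PrE markers, and MUT PrE embryo 5 cell 7 (144 CPM), with 4372 CPM of PrE markers.

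The 2 highest cells for Tfap2c were both EPI, WT embryo 1 cell 1 (273 CPM) and MUT embryo 5 cell 6 (128 CPM). For Tead4 they were WT ICM embryo 20 cell 11 (344 CPM) and MUT EPI embryo 4 cell 5 (243 CPM), each with high EPI markers (4989 and 3739 CPM). For Gata2 the next after cell 7 was WT EPI embryo 2 cell 4 (85.9 CPM), with Cdx2 at 0.21. For Krt8 the next was WT ICM embryo 20 cell 7 (1373 CPM), where Krt18 was 0.346 CPM, and for Krt18 MUT PrE embryo 2 cell 3 (621 CPM), where Krt8 was 709. For Elf5 the next was 1 count in the shallowest cell, MUT ICM embryo 18 cell 11 (6.1 CPM). High values of single members were thus found in cells of ICM, EPI and PrE labels, and Cdx2 and Elf5 at 10 or more counts together only in cell 7.

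Between genotypes, none of the 6 members tested in each lineage passed edgeR's quasi-likelihood test on embryo sums (adjusted p under 0.05, Benjamini-Hochberg over all genes), and neither did any gene: the share of genes called was 0% in ICM (12270 genes), EPI (12298) and PrE (11765). At an unadjusted p under 0.05 edgeR had 815 genes in ICM (6.64%), 570 in EPI (4.63%) and 545 in PrE (4.63%), and DESeq2 called 108 genes (0.88%), 187 (1.52%) and 157 (1.33%). Cdx2 and Elf5 never passed the low-count filter for these comparisons, nor Gata2 in ICM or Gata3 in EPI and PrE. Members with unadjusted p under 0.05 were Eomes and Gata2 in EPI, and none in ICM or PrE.

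Eomes stood higher in MUT in all 3 lineages without passing. In EPI, the MUT sums had 14.4, 40.4, 24.6 and 34.9 CPM and the WT sums 9.2, 3.42 and 5.33. Each MUT embryo was above each WT embryo, a pattern that 2.2% of genes showed in this direction. The log2 fold change was 2.25 (SE 0.75, edgeR adjusted p = 0.626), and DESeq2 called the gene (adjusted p = 0.028), as it did 1.52% of genes. Within letter A, which is also within males, MUT embryos 4 and 5 had 24.6 and 34.9 CPM and WT 3 had 5.33.

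In ICM the MUT sums of Eomes had 22.7, 9.93, 67.7, 1.69 and 28.1 CPM and the WT sums 0.0422, 9.1, 3.65, 15.5 and 4.89. The groups overlapped (log2 1.98, SE 1.17, edgeR adjusted p = 0.803), and the log2 value was 0.80 when the model held embryo sex. The only male MUT ICM embryo, 23, had the lowest MUT value, 1.69 CPM. In PrE the MUT sums had 33.9, 58.5, 22.6 and 39.8 CPM and the WT sums 45.4, 21.8 and 0. The value of 0 is a sum of 1 cell, and cell 7 gave 87.9% of the Eomes counts in the WT sum of 45.4. The log2 fold change was 0.77 with all cells (SE 1.45) and 1.94 without cell 7 (SE 1.47, edgeR adjusted p = 1.0 in both). With sex as a covariate, where the genotype value rests on WT 3 alone, edgeR called Eomes (log2 13.6, adjusted p = 0.0392), as it did 1.84% of genes.

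By cell, Eomes was detected in 42 of 55 MUT ICM cells and 24 of 64 WT ICM cells, in 9 of 9 MUT EPI cells and 15 of 19 WT EPI cells, and in 14 of 14 MUT PrE cells and 7 of 10 WT PrE cells. Thinned to 1000000 counts per cell, the expected shares were 65.4% of 47 MUT ICM cells against 18.6% of 61 WT ICM cells. At that depth they were 77.7% in MUT EPI against 45.7% in WT EPI, and 89.7% in MUT PrE against 52.6% in WT PrE. Without cell 7, Eomes was detected in 6 of 9 WT PrE cells, with an expected share of 47.4%. The MUT share of Eomes was the larger in each lineage at equal depth. In ICM this was not particular to Eomes. Tead4 had 92.1% in MUT against 65.1% in WT, Krt18 70.98% against 49.95% and Gata3 41.1% against 23.7%. Tfap2c (52.3% against 57.2%) and Gata2 (5.14% against 6.08%) went the other way. The median number of genes detected per cell was 9250 in MUT ICM and 8707 in WT ICM. Whether the Eomes shares differ more than those of all genes was not tested. Cells of 1 embryo are not replicates, and these shares carry no test.

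Gata2 stood lower in MUT EPI. The 4 MUT sums had 0, 0, 0 and 0.0588 CPM (2 counts in all) and the 3 WT sums 5.0, 17.4 and 3.4. All MUT embryos were below all WT embryos, as were 5.42% of genes. The fitted log2 fold change was −8.77 (SE 2.14, edgeR adjusted p = 0.325), which depends on the prior count since 3 MUT sums are at 0, and DESeq2 called it (adjusted p = 6.54e-04). At 10 CPM or more Gata2 was found in 0 of 9 MUT EPI cells and 7 of 19 WT EPI cells, with up to 85.9 CPM in WT. Within letter A it stood at 0 and 0.0588 CPM in MUT 4 and 5 and at 3.4 in WT 3.

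The keratins had fitted values above 0 in EPI without a call. Krt8 averaged 207 ± 162 CPM in MUT EPI (SD, n = 4) and 79.3 ± 58.4 in WT EPI (n = 3), a log2 fold change of 1.38 (SE 0.81, edgeR adjusted p = 1.0). Krt18 had 110, 279, 13.3 and 0.147 CPM in MUT EPI and 11.1, 8.13 and 1.63 in WT EPI (log2 3.86, SE 1.86, edgeR adjusted p = 1.0). For both keratins the 2 high MUT embryos are those of letter B, which holds no WT embryo, with Krt8 at 353 and 339 CPM. Within letter A, MUT 4 and 5 had 95.0 and 40.7 CPM of Krt8 and WT 3 had 37.1. For Krt18, MUT 4 and 5 had 13.3 and 0.147 CPM and WT 3 had 1.63, so that the WT embryo lay between them.

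In PrE the direction of both keratins depended on cell 7. Krt8 had 396, 644, 286 and 99.2 CPM in MUT PrE and 2373, 78.5 and 340 in WT PrE, and Krt18 26.3, 409, 44.3 and 1.68 in MUT and 1256, 1.93 and 19.9 in WT. The log2 fold change of Krt8 was −1.41 with all cells (SE 1.02) and 0.14 without the cell (SE 0.72), and that of Krt18 −1.85 (SE 2.01) and 1.95 (SE 1.68), with edgeR adjusted p = 1.0 in each. Gata2 was −6.62 with all cells (SE 2.95) and did not pass the low-count filter without the cell. Tfap2c was −2.31 with all cells (SE 2.24) and −1.29 without the cell (SE 2.18), and Tead4 was at −0.39 in both fits (SE 0.60).

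**Figure D3:**
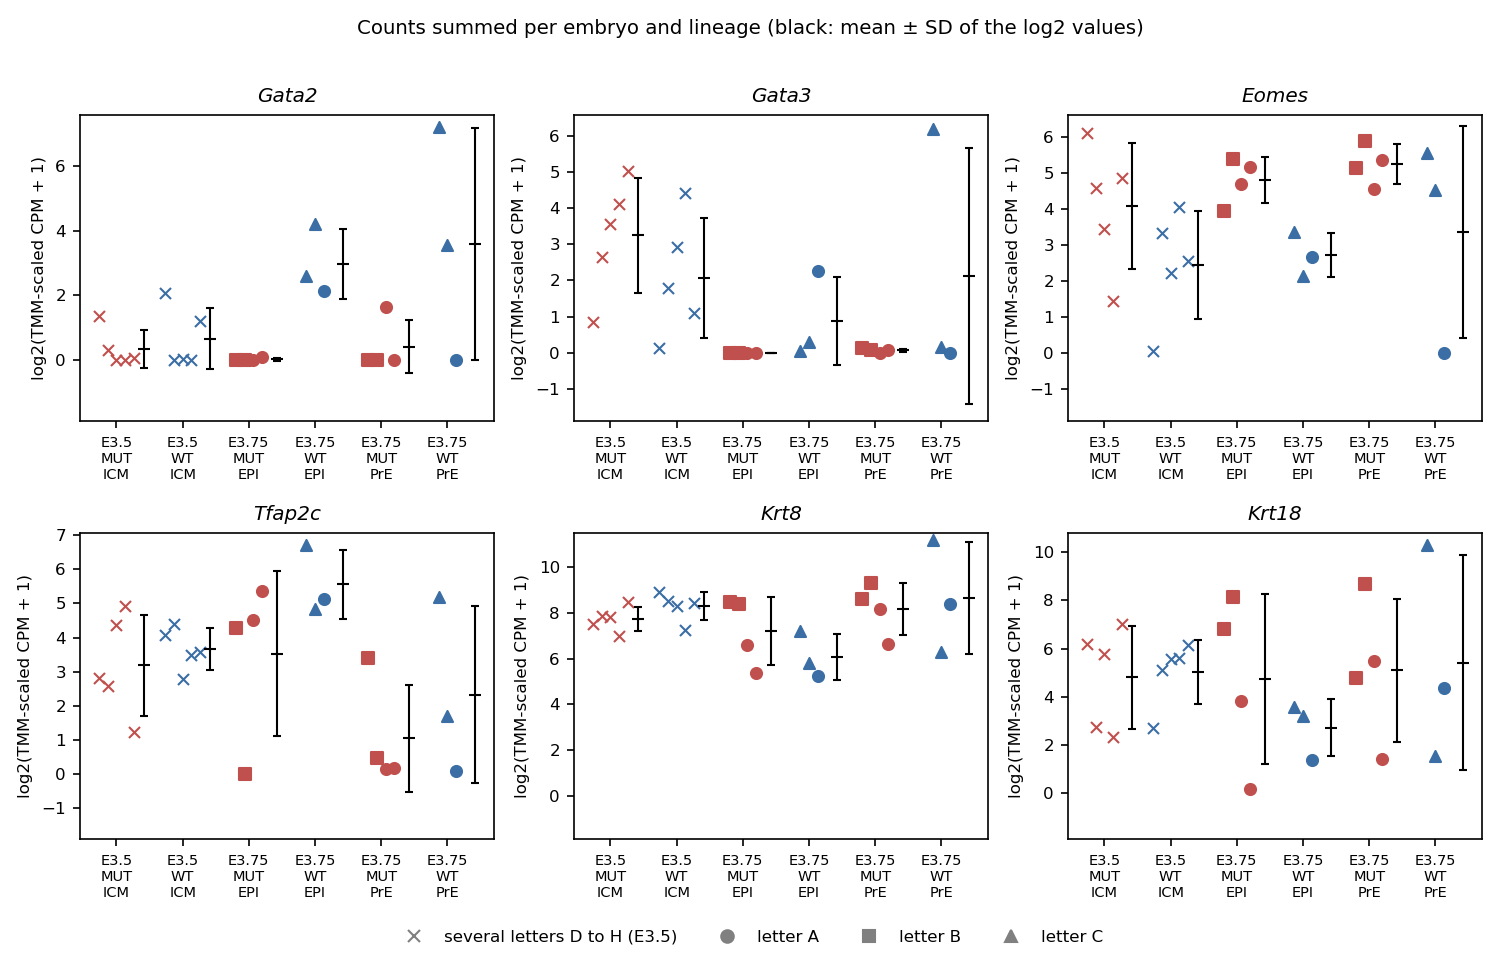
Each point is the sum of 1 embryo's cells of 1 label, on a log2(TMM-scaled CPM + 1) axis, with MUT in red, WT in blue, the shape giving the title letter and the black bars the mean ± SD of the log2 values. Eomes is higher in all 4 MUT EPI embryos than in the 3 WT ones and Gata2 lower, and the highest point of WT PrE for Gata2, Gata3, Krt8 and Krt18 is WT embryo 1, which holds cell 7.

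The other members gave smaller or less even differences. Tfap2c averaged 20 ± 16.4 CPM in MUT EPI and 54.9 ± 42.1 in WT EPI (SD, n = 4 and 3, log2 −1.47, SE 1.36). Tead4 averaged 77.1 ± 47.2 CPM in MUT EPI and 59.1 ± 6.45 in WT EPI (log2 0.38, SE 0.53). In the ICM sums (n = 5 each), Gata3 had a mean of 13 ± 12 CPM for MUT and of 6.15 ± 8.42 CPM for WT (log2 1.07, SE 1.29). Krt8 had a mean of 226 ± 86.4 CPM for MUT and of 333 ± 117 CPM for WT (log2 −0.57, SE 0.39). In ICM, Tfap2c was −0.04 (SE 0.95), Tead4 0.49 (SE 0.83) and Krt18 0.38 (SE 0.87) on the log2 scale. Each of these differences was within 2 SE of 0.

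Between lineages of WT embryos, Krt8 and Krt18 had the smallest p among members with all cells, and Krt8 and Tfap2c without cell 7. In WT, 7 members were tested and 0 passed, with 4 of 12733 genes called (0.0314%), or 0 (0%) with the embryo as a block. Krt8 had 146, 54.9 and 37.1 CPM in the EPI sums and 2373, 78.5 and 340 in the PrE sums of WT embryos 1, 2 and 3. PrE was the higher in each of the 3 embryos, and the log2 value for EPI minus PrE was −3.55 with all cells (SE 1.27, edgeR adjusted p = 0.421) and −2.0 without cell 7 (SE 0.79, edgeR adjusted p = 0.512). DESeq2 called Krt8 with all cells (adjusted p = 0.0168), as it did 5.71% of genes. Krt18 was −5.94 (SE 2.33) with all cells and −2.14 (SE 1.34) without it.

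In MUT, 5 members were tested and 0 passed, with 177 of 10698 genes called (1.65%), or 74 (0.692%) with the embryo as a block. Krt8 had 353, 339, 95 and 40.7 CPM in the EPI sums and 396, 644, 286 and 99.2 in the PrE sums of embryos 1, 2, 4 and 5. PrE was again the higher in each embryo (log2 −0.77, SE 0.72, edgeR adjusted p = 0.867), and with the embryo as a block the value was −0.98 (SE 0.28, edgeR adjusted p = 0.268). Krt18 was −0.25 (SE 1.71). Tfap2c was the member that stood higher in EPI in both genotypes, with log2 values of 2.99 (SE 2.03) in MUT, and in WT of 2.13 with all cells (SE 1.68) and 3.14 without cell 7 (SE 1.55), none past the test. By cell its median was 14.2 CPM in MUT EPI and 0.172 in MUT PrE, and 26.3 CPM in WT EPI and 3.0 in WT PrE, or 0.693 in WT PrE without cell 7. Tead4 was 0.34 in MUT (SE 0.55) and −0.43 in WT with and without cell 7 (SE 0.55).

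The sign of Gata2 and Gata3 between EPI and PrE of WT depended on cell 7. For EPI minus PrE the log2 values with all cells were −2.61 for Gata2 (SE 2.05) and −4.12 for Gata3 (SE 3.02), and without it 1.24 (SE 2.17) and 0.21 (SE 2.32). Eomes stayed below 0 in both fits, at −1.89 (SE 1.84) and −0.72 (SE 1.85). Eomes in MUT was −0.43 (SE 0.54), with medians of 28.6 CPM in EPI cells and 31.8 in PrE cells. No member passed the test between lineages.

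**Figure D4:**
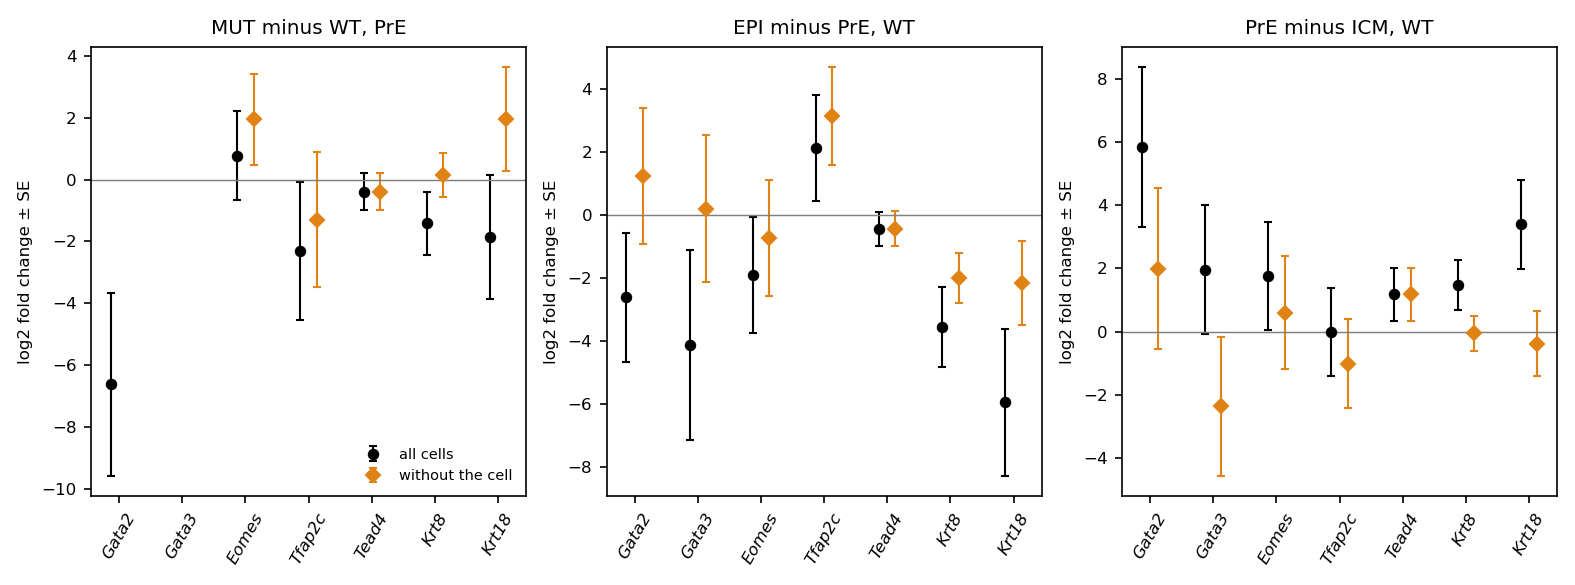
Log2 fold changes ± SE of members in the 3 comparisons that hold WT PrE, with all cells (black circles) and without cell 7 of WT embryo 1 (orange diamonds). Krt8 and Krt18 change sign in the left and right panels, Gata2 in the middle one and Gata3 in the middle and right ones, while Tead4 stays in place; genes with no point did not pass the low-count filter.

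Between E3.75 and the ICM of E3.5, 0 members passed in any of 4 comparisons, with 43 of 13972 genes called for WT EPI (0.308%), 46 of 13190 for WT PrE (0.349%), 8 of 11733 for MUT EPI (0.0682%) and 61 of 12040 for MUT PrE (0.507%). Stage coincides with the title letters, so that stage and letter cannot be told apart. In MUT, sex also runs with stage: all E3.75 embryos were male, and of the E3.5 embryos only 23 was. The member with the smallest p in WT EPI was Krt8, with 146, 54.9 and 37.1 CPM in EPI sums and 478, 368, 316, 154 and 350 in ICM sums. All EPI sums were below all ICM sums, as were 7.07% of genes (log2 −2.06, SE 0.53, edgeR adjusted p = 0.115). Krt18 stood lower as well (log2 −2.51, SE 0.91, edgeR adjusted p = 0.253), and Tfap2c stood higher (log2 2.14, SE 0.62, edgeR adjusted p = 0.156), with 103, 27.5 and 33.8 CPM in EPI sums against 15.9, 19.9, 5.91, 10.2 and 10.9 in ICM sums. The Tfap2c sums did not overlap, as was so for 8.37% of genes in this direction. DESeq2, which called 7.65% of genes here, called Krt8 (adjusted p = 0.00396), Krt18 (0.0227) and Tfap2c (0.0155).

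In the same comparison Gata2 was 3.25 (SE 2.15) and Eomes −0.12 (SE 1.34) on the log2 scale, neither past the test.

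In MUT EPI against MUT ICM, Krt8 was −0.13 (SE 0.58) and Krt18 0.94 (SE 1.31) on the log2 scale, with Eomes at 0.12 (SE 0.92), Tfap2c at 0.68 (SE 1.39) and Tead4 at 0.59 (SE 0.76). In MUT PrE against MUT ICM, Krt8 was 0.65 (SE 0.48), Krt18 1.2 (SE 1.23), Eomes 0.57 (SE 0.85), Tfap2c −2.27 (SE 1.62) and Tead4 0.29 (SE 0.73). The difference between genotypes in this step is the interaction, which edgeR did not call (Krt8 1.94, SE 1.05, adjusted p = 0.55). Gata3 had the smallest p among members in MUT. The MUT EPI sums held 0 counts (at most 0.0333 CPM, 3 counts over the group) and the MUT PrE sums 0.0873, 0.0481, 0 and 0.0443 CPM, against 5.32, 10.8, 0.793, 16.4 and 31.6 CPM in MUT ICM sums. All E3.75 sums of MUT were below all ICM sums. Its edgeR adjusted p was 0.178 for EPI and 0.088 for PrE, and DESeq2 called both (adjusted p = 8.68e-08 and 1.97e-08), as it did 3.53% and 4.62% of genes. Sums lay below all ICM sums for 2.82% of genes in MUT EPI and 3.11% in MUT PrE. The fitted fold changes depend on the prior count and are not given.

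In WT, Gata3 sums overlapped between stages, with 0.0413, 0.216 and 3.83 CPM in EPI sums against 0.0844, 2.43, 6.55, 20.5 and 1.12 in ICM sums (log2 −2.18, SE 1.94, edgeR adjusted p = 0.702). For WT PrE minus ICM, the sign of 3 members depended on cell 7: Krt8 was 1.47 with all cells and −0.05 without it, Krt18 3.39 and −0.37, and Gata3 1.96 and −2.35. Gata2 was 5.84 with all cells and 2.0 without the cell, Eomes 1.76 and 0.60, Tfap2c −0.01 and −1.0, and Tead4 1.19 in both. None of these passed in either fit.

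Tead4 gave different results by sum and by cell. Its sums overlapped between stages, at 51.7 to 62.8 CPM in WT EPI against 6.58 to 85.8 in WT ICM (log2 0.73, SE 0.75, edgeR adjusted p = 0.751). By cell, all 19 WT EPI cells had at least 10 CPM (median 74.2), against 24 of 64 WT ICM cells (median 1.99), and 34 of 55 MUT ICM cells did (median 17). A limma-trend fit to each embryo's mean of log2(CPM + 1), which weighs its cells equally, called Tead4 higher in WT EPI (2.84, adjusted p = 0.0055) and WT PrE (2.86, adjusted p = 0.0312), where it called 29% and 15.7% of genes and the median of all genes was itself shifted by 0.68 and 0.56. Under the same method Eomes (1.09, adjusted p = 0.048), Gata2 (1.65, adjusted p = 0.0116) and Tfap2c (2.43, adjusted p = 0.0104) passed as higher in WT EPI.

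The test of whether the genotype difference itself varied between lineages gave 0 genes of 16521 in each of 3 interaction contrasts by edgeR (1713, 1750 and 1150 genes, or 10.4%, 10.6% and 6.96%, at an unadjusted p under 0.05). Gata3 had the smallest p among members for EPI against ICM and for PrE against ICM (edgeR adjusted p = 0.251 and 0.299, and 0.239 and 0.442 without the cells that met the 20 CPM rule), and DESeq2 called it in all 3 contrasts with all cells, where it called 4.29%, 5.27% and 4.09% of genes. With MUT EPI at 0 counts of Gata3, no size is given. For EPI against PrE, the Krt8 value was 2.77 on the log2 scale with all cells (SE 1.14, edgeR adjusted p = 0.595) and 1.21 without those cells (SE 0.96), and the Krt18 value 5.68 (SE 2.50) and 1.88 (SE 2.13). For PrE against ICM, Krt8 was −0.82 with all cells (SE 1.03) and 0.73 without those cells (SE 0.88), and Krt18 −2.20 (SE 2.13) and 1.60 (SE 1.97), so that the sign of both depended on them. For EPI against ICM, Krt18 was 3.48 (SE 2.24) with all cells. The values of Eomes, Tfap2c and Tead4 with all cells were 0.29, −1.42 and −0.13 for EPI against ICM, −1.18, −2.27 and −0.88 for PrE against ICM, and 1.47, 0.85 and 0.75 for EPI against PrE, all within 2 SE of 0.

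Across the 6 groups the order of a member's mean level was rarely clear. Neighbours in that order overlapped in their embryo ranges in all 5 steps for 8 members, and for Gata2 in 4 of 5, the exception being WT EPI, at 3.4 CPM or more, against WT ICM, at 3.17 or less. Mean levels were highest in WT PrE for Cdx2, Gata2, Gata3, Elf5, Tead4, Krt8 and Krt18, in MUT PrE for Eomes and in WT EPI for Tfap2c. Cell 7 carried 6 of those: without it, in CPM without TMM scaling, WT PrE was highest for Tead4 alone (85.2 CPM, against 83.3 in MUT EPI). The highest mean was then in MUT PrE for Krt8 (360 CPM, against 335 in WT PrE) and Krt18 (116 CPM, against 32.0 in WT PrE), and in MUT ICM for Gata3 (11.8 CPM, against 1.25 in WT PrE). For Gata2 it was then in WT EPI (9.67 CPM, against 4.03 in WT PrE), for Elf5 also in WT EPI (0.0294 CPM) and for Cdx2 in WT ICM (0.629 CPM). The Krt18 mean of MUT PrE rested mostly on 1 cell as well. Cell 3 of MUT embryo 2 held 7948 of the 11729 Krt18 counts of that group. Per kb of exon in MUT EPI, a group without cell 7, the mean level of Krt8 was 106 CPM per kb and of Krt18 70.1. The factors there stood at 21.4 for Tead4, 6.88 for Eomes, 5.44 for Tfap2c and 0.00272 for Gata2. WT EPI, also without cell 7, had 40.5 CPM per kb of Krt8 but 4.83 of Krt18. That was below Tead4 (16.4) and Tfap2c (14.9) and above Gata2 (1.60) and Eomes (1.44).

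Cells of both stages held Krt8 without its partner. Krt18 had no count in 8 of 55 MUT ICM cells and 16 of 64 WT ICM cells, and at E3.75 in 1 of 9 MUT EPI and 4 of 19 WT EPI cells, and 2 of 14 MUT PrE and 2 of 10 WT PrE cells. All of these had Krt8, and their share was 24 of 119 cells at E3.5 and 9 of 52 at E3.75. Krt18 was above Krt8 in 4 MUT ICM and 7 WT ICM cells. At E3.75, Krt18 was above Krt8 in none of 52 cells. The correlation of log2(CPM + 1) across cells was 0.18 in MUT ICM (55 cells) and 0.16 in WT ICM (64 cells), 0.86 in MUT EPI (9 cells) and 0.43 in WT EPI (19 cells), and 0.72 in MUT PrE (14 cells) and 0.63 in WT PrE (9 cells, without cell 7). These describe cells that share embryos and differ in depth. In cell 7 Krt8 was 1.66 times Krt18, whereas the median ratio was 16.8 over the 7 WT PrE cells with 10 or more counts of Krt18, cell 7 among them. In the other groups this median ranged from 2.60 (WT ICM) to 8.83 (MUT PrE).

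**Figure D5:**
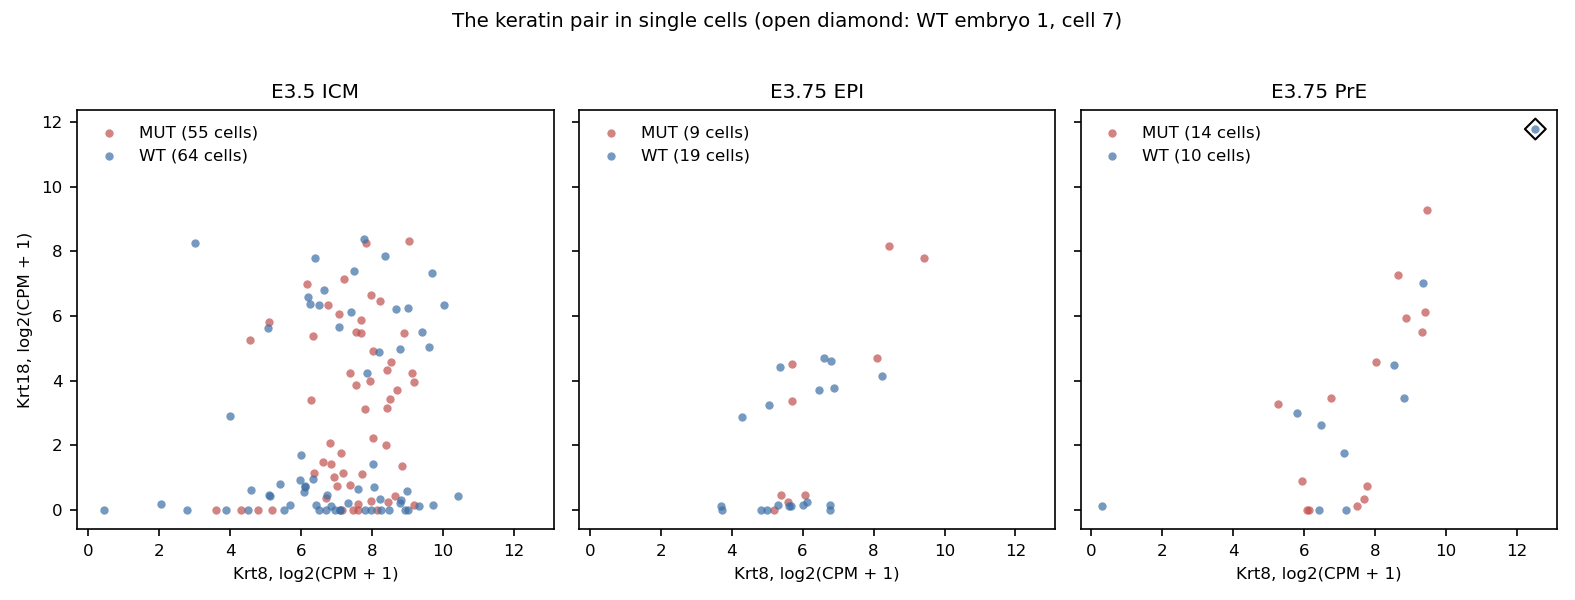
Krt8 against Krt18 in each cell, on log2(CPM + 1) axes, for ICM (left), EPI (middle) and PrE (right), with MUT in red, WT in blue and an open diamond around cell 7 of WT embryo 1. Many ICM cells lie along the bottom with Krt8 and almost no Krt18, and the marked cell, at 5848 and 3514 CPM, lies beyond all others.

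Members were otherwise weakly related across cells. After subtracting group means, the highest correlation between 2 members over all cells was that of Cdx2 with Elf5, 0.64, which was 0.25 without cell 7. Krt8 with Krt18 was 0.33, and 0.29 without it. Among 7870 genes with a mean of at least 10 CPM, none reached 0.5 with any member detected in 50 or more cells, and the nearest was Slc25a39 with Tead4 at 0.49.

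Of 16 further trophectoderm genes, 8 were tested in MUT between lineages, where edgeR called 1 in each direction (1.65% of all genes were called), and 10 in WT PrE against ICM, where it called 1 as higher (0.349% of all genes). Fgfr2, an FGF receptor also used by PrE, had a mean of 0.227 CPM in MUT EPI and 73.4 in MUT PrE (log2 −8.41, SE 1.03, edgeR adjusted p = 0.00365). Aqp3, a water channel, had a mean of 108 CPM in MUT EPI and 5.79 in MUT PrE (log2 4.23, SE 0.61, edgeR adjusted p = 0.00918). Atp1b1, a subunit of the sodium pump that drives blastocoel filling, had 182 CPM in WT PrE and 29.9 in WT ICM (log2 2.60, SE 0.40, edgeR adjusted p = 0.0321), and without cell 7 it lost its call (log2 2.20, SE 0.45, edgeR adjusted p = 0.0678).

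Between genotypes none of these 16 genes was called. In ICM, 4 of the 10 tested were above 0 (median log2 −0.42, against −0.05 for all genes), and Dppa1 had the smallest p, at 0.836 CPM for MUT and 37.4 for WT (log2 −5.55, SE 1.24, edgeR adjusted p = 0.435), followed by Aqp3 (−1.47, SE 0.57). In EPI, 4 of 9 were above 0 (median −0.07, against 0.04), with Aqp3 at 110 CPM in MUT and 286 in WT (−1.37, SE 0.39) and Cldn4 at 243 CPM in MUT and 98 in WT (1.31, SE 0.45). In PrE, 1 of 9 was above 0 (median −1.12, against 0.03) with all cells, and 3 of 9 (median −0.13) without cell 7. Cldn4 was −3.34 (SE 1.18) with the cell and −0.83 (SE 0.97) without it, and Atp1b1 −1.12 (SE 0.39) and −0.70 (SE 0.42).

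None of the 17 Hippo pathway genes was called in any of the 12 comparisons. Between genotypes, 11 of 14 tested were above 0 in ICM (median log2 0.19, against −0.05 for all genes), 9 of 14 in EPI (0.29, against 0.04) and 8 of 15 in PrE (0.14, against 0.03). The smallest p values were those of the kinase gene Lats1 (−2.78, SE 1.77) and of Wwtr1 (0.69, SE 0.61) in ICM, of the kinase gene Stk4 (1.04, SE 0.43) and Wwtr1 (−0.96, SE 0.73) in EPI, and of Wwtr1 (−1.65, SE 0.51) and Tead3 in PrE, where Tead3 had 0 counts in WT. Wwtr1 stood at 234 CPM in cell 7, and its PrE value without that cell was −1.40 (SE 0.58).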

How the data were processed

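The deposited table holds whole-number read counts per gene and cell. Reads were aligned to mm10 with STAR and counted with HTSeq, per the submitters' processing notes, with versions and strand setting not given in the sources used here. Of 49671 rows, 259 had no name in GENCODE vM21. Nothing was corrected for doublets, and no 2 cells had identical counts. Each sample is 1 cell, so counts were summed per embryo and label (24 sums of 17 embryos), on the reading that an embryo number within a stage and genotype marks 1 embryo. 2 sums, MUT EPI embryo 2 and WT PrE embryo 3, hold 1 cell each. The labels do not say whether embryos came from separate litters, so p-values measure the spread between these embryos.

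The main test was edgeR 4.0.16's quasi-likelihood test (R 4.3.3, scaled by TMM, genes kept by filterByExpr at its minimum of 10 counts, fitted robustly, Benjamini-Hochberg over all genes tested, threshold 0.05), whose script was tested on simulated data. Alternatives were DESeq2 1.42.0, its size factors, no filter, limma 3.58.1 trend on embryo means of log2(CPM + 1) (pseudocount 1), omission of shallow cells (more than 3 median absolute deviations below the median depth), of the cells with trophectoderm genes or of sums of 1 cell, covariates of letter or sex, an embryo block, and leaving out each embryo. EPI and PrE sums of 1 number come from the same embryo and are paired by it. The main tests between lineages did not use this pairing, and the embryo block was their alternative. The interaction fits took EPI and PrE sums of an embryo as separate in every setting. Deviations of EPI and PrE sums of 1 embryo from their group means correlated at 0.106 to 0.185 in WT and 0.048 to 0.121 in MUT over 7971 genes. Limits for 0 counts use 3 counts and cover counting error only.

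The genes named are the 9 members in each comparison where they passed the low-count filter, except that sizes which rest on groups at or near 0 counts (Cdx2, Gata2 and Gata3 in the interactions, Gata3 in MUT stages) are not given, with those of the trophectoderm and Hippo lists that passed or had the 2 smallest p between genotypes. Members and lists were chosen with earlier results of these data known. Other tools were Python 3.11.15, numpy 2.4.6, pandas 2.3.3, scipy 1.17.1 and matplotlib 3.10.9.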

Additional observations from a re-analysis of the deposited data

Results flagged for a closer look

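Within groups of 4 to 10 cells or embryos, 12 of the 35 sets of values looked at had 1 value far from the rest by Dixon's ratio, where chance gives about 1 in 20 for independent, normally distributed values. That share is no baseline here, since many of the values are near 0 and cells share embryos. Only sets with a highest value of at least 10 CPM were looked at. Of the 12, 7 were cell 7 of WT embryo 1 among the 10 WT PrE cells. The sets of Cdx2, Gata3 and Elf5 entered only through this cell, which had been taken by a rule on these genes. Their flags are therefore no separate evidence. It had 99.4 CPM of Cdx2 against 0.133 in the next cell, 427.5 of Gata2 against 74.4, 204 of Gata3 against 6.86 and 141 of Elf5 against 0.266. It had 70.4 CPM of Tfap2c against 24.8, 5848 of Krt8 against 644 and 3514 of Krt18 against 130.

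The 9 MUT EPI cells gave 4, each a different cell. Eomes was 101 CPM in embryo 5 cell 4 with 41.0 in the next cell, and Tfap2c 128 CPM in embryo 5 cell 6 with 37.1 in the next. Tead4 was 243 CPM in embryo 4 cell 5 with 113 in the next, and Krt8 685 CPM in embryo 1 cell 1 with 343 in the next. Among embryo sums, Krt18 was 409 CPM in MUT PrE embryo 2, a sum of 2 cells, with 44.3 in the next embryo.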

How the results depend on the processing

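No member passed edgeR's test in any of the 12 comparisons, and calls under other settings were made by DESeq2, by limma on cell means or with sex as a covariate. That last setting gave Eomes in PrE a log2 value of 13.6 (adjusted p = 0.0392), resting on the 1 cell of WT embryo 3. Over all genes, DESeq2 called 108 genes between genotypes in ICM, 187 in EPI and 157 in PrE, 631 between lineages in MUT and 727 in WT, and 556 (MUT PrE), 414 (MUT EPI), 1198 (WT PrE) and 1069 (WT EPI) between stages. For the interactions it called 708 (EPI against ICM), 870 (PrE against ICM) and 675 (EPI against PrE). limma called 2 genes in ICM, and 3 with letter effects removed, 321 between lineages in MUT and 7 in WT, 630, 223, 2071 and 4048 between stages in the same order, and 2 and 3 for the first interactions. Without the low-count filter the counts were 3 in ICM, 32 between lineages in WT, and 108, 22, 118 and 85 between stages. Other counts were 1 in ICM without shallow cells, 217 in PrE with sex as a covariate, 7 between lineages in WT with DESeq2's size factors, and 0 for MUT EPI and for WT PrE against ICM without sums of 1 cell. The replicate block by embryo gave 0 genes between lineages in WT and 74 in MUT and changed no member's call. Between genotypes the shared numbers are only numbers (correlations −0.0415 to 0.164), and that block gave 0 genes in EPI and PrE. Leaving out each embryo gave 0 to 1 genes in ICM and in the interactions, 0 to 0 between lineages in WT and 71 to 91 in MUT, and 14 to 169, 0 to 17, 0 to 42 and 0 to 162 between stages. The rule for cells took 6 cells at 10 CPM and 1 at 50 CPM.

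Signs of uncalled values turned as follows, on the log2 scale, and the cause was not tested except where the left-out cell or embryo is the change. Without the cells with trophectoderm genes, Krt8 and Krt18 in PrE were 0.14 and 1.95, Gata2 and Gata3 between lineages in WT 1.24 and 0.21, and Gata3, Krt8 and Krt18 in WT PrE against ICM −2.35, −0.0527 and −0.37. With the replicate block, Tead4, Krt8 and Krt18 in PrE were 0.48, 0.22 and 1.04, and Gata2 and Gata3 between lineages in WT 0.57 and 0.82. With letter as a covariate, Gata2, Tfap2c and Krt18 in PrE were 8.43, 0.57 and 0.15, and with sex Gata2, Tfap2c, Krt8 and Krt18 were 7.47, 4.97, 0.0208 and 2.54. In ICM, Tfap2c was 0.0732 with DESeq2, 0.075 with its size factors and 0.16 with sex, Krt8 0.20 with limma and 0.0802 with letter effects removed, and Krt18 −0.71 with sex. With limma, Gata2 between lineages in WT was 0.42, Krt18 between lineages in MUT 0.30, and Gata3 and Eomes in WT EPI against ICM 0.0241 and 1.09. Without sums of 1 cell, Tead4 was 0.46 in PrE and 0.41 between lineages in WT, Tfap2c 0.57 in WT PrE against ICM, and Eomes and Krt18 −0.10 and −0.36 in MUT EPI against ICM. Tfap2c in WT PrE against ICM was 0.0044 with DESeq2 and 0.0043 with its size factors.

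Leaving out each embryo, the ranges that crossed 0 were, between genotypes in ICM, −0.68 to 0.29 for Tfap2c, −0.14 to 1.12 for Tead4 and −0.23 to 0.69 for Krt18. In PrE they were −5.95 to 1.12 for Tfap2c, −0.73 to 0.46 for Tead4, −1.95 to 0.73 for Krt8 and −4.16 to 3.43 for Krt18. Between lineages they were −0.0266 to 0.81 for Tead4 and −0.60 to 0.79 for Krt18 in MUT, and −4.11 to 0.96 for Gata2, −8.03 to 4.97 for Gata3 and −0.81 to 0.38 for Tead4 in WT. Against ICM they were −1.16 to 1.82 for Krt18 in MUT PrE, −0.19 to 0.87 for Eomes, −0.49 to 0.22 for Krt8 and −0.36 to 1.57 for Krt18 in MUT EPI, and −0.59 to 0.48 for Eomes in WT EPI. In WT PrE against ICM they were −6.58 to 3.24 for Gata3, −3.40 to 0.57 for Tfap2c, −0.63 to 2.02 for Krt8 and −1.82 to 3.98 for Krt18. Leaving out WT embryo 1, which holds cell 7, gave the turned value of Krt8 and Krt18 in the PrE ranges between genotypes and in WT, and leaving out MUT embryo 2 that of Krt18 in MUT PrE against ICM. Depth limits what a 0 shows: 0 counts of Cdx2 over the 9 MUT EPI cells allow up to 0.0333 CPM.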
